A study of Rattus norvegicus with 6 samples.

Results

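The genes described here encode the protein components of the cytosolic ribosome. They were taken from the gene table by symbol, as every row whose symbol begins with Rpl or Rps followed by a digit, plus Rplp0, Rplp1, Rplp2 and Rpsa, with the S6 kinase genes (Rps6k) left out. The rule found 88 of 22864 genes and used no measured value. Of these, 46 encode the usual proteins of the large subunit and 31 those of the small subunit, together called canonical below, and 10 are paralogs or copies named after such a gene. The remaining member, Rps19bp1, encodes a protein that binds Rps19 and is not itself part of the ribosome. Fau and Rack1, which also give ribosomal proteins, fall outside the symbol rule and are described with the translation factors.

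Bulk RNA sequencing was done on dorsal root ganglia, where sensory neurons have their cell bodies, taken at levels L4 to L6 on the treated side of male wild-type rats. For CPIP, known in the field as chronic post-ischaemia pain, a tight O-ring was left for 3 h on the hind limb close to the ankle while the rat was under pentobarbital, and Sham rats were anaesthetised in the same way with no ring. Vehicle (Veh) or etanercept (ETA), a fusion of a TNF receptor with an antibody tail that binds TNF, was given into the spinal canal once a day from 2 days after the procedure, and ganglia were collected on day 7. Each of the 3 groups (Sham+Veh, CPIP+Veh, CPIP+ETA) was sequenced as 2 libraries, numbered 1 and 2 below. All 3 groups had the anaesthesia and the intrathecal injections, only RNA with an integrity number of at least 8.0 was used, and the age of the rats is not given in the labels. The labels do not state whether libraries of a group came from separate rats, so p-values measure only the spread between these libraries, which may be technical.

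A ribosome is built from a large and a small subunit, each a scaffold of ribosomal RNA decorated with proteins that are needed in about equal amounts. In mammals many ribosomal protein mRNAs begin with a run of pyrimidines at the first transcribed base, the terminal oligopyrimidine motif, through which mTOR and the RNA-binding protein Larp1 control their translation and stability as a group. In sensory neurons ribosomes fill the cell body and are also found in axons, and mTOR-dependent translation in these cells has been linked to pain after injury.

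The pyrimidine run was looked for in RefSeq promoter sequences of build GRCr8, which is a later build than the one the counts were made on. A run was defined as at least 8 consecutive C or T on the gene's strand that touched the 10 bases on either side of the annotated start. It was present in 44 of the 62 canonical members that had a sequence (71.0%), against 13.2% of all 27457 promoters of the same length. The longest run had a median of 10 bases in the canonical members and 4 bases in all promoters. The windows below span 15 bases on either side of the start, written 5′ to 3′ with the run in capitals, and are shown as examples from the members described below, first those with a run.
Rpl5 (GRCr8 chr14:1995211-1995240, minus strand): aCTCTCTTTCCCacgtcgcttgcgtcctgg
Rps15 (GRCr8 chr7:10068101-10068130, minus strand): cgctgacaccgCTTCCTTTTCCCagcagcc
Rpl35a (GRCr8 chr11:81235007-81235036, minus strand): gcgggtcttgCCTTCCTCTTTCCgccatct
Rps27 (GRCr8 chr2:177964592-177964621, minus strand): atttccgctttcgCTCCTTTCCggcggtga
Rps23 (GRCr8 chr2:23814502-23814531, plus strand): tgggtccttcctgCCTCTCTTCTCTCTTTC
Rpl37a (GRCr8 chr9:81748076-81748105, plus strand): gcatgcccgttgcgTCTCTTCCTCTTCggg
Rpl38 (GRCr8 chr10:100200420-100200449, plus strand): cttcgTTCTTTTTCCgttgttcggtgctcg
Rps10 (GRCr8 chr20:5700730-5700759, minus strand): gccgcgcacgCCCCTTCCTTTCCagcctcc
In Rps23 the run goes on past the end of the window and has 21 bases in all. In Rpl5 and Rpl38 the run ends before the annotated start, which the definition allows. The next 3 members had no such run near their annotated start and are printed in lower case throughout for contrast.
Rps4x (GRCr8 chrX:71342907-71342936, minus strand): tccagcgcgcgcagcctccgaccctaattt
Rps6 (GRCr8 chr5:106420526-106420555, minus strand): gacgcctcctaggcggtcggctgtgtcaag
Rps12 (GRCr8 chr1:23500060-23500089, plus strand): gcacagaagcccagcagagcgcttaaatac
A match or its absence describes only these letters at the start that RefSeq annotates, and a start annotated a few bases away would shift the window.

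Total counts were between 18285251 and 19981250 per library. The labelled tissue was checked on marker genes: all 11 sensory neuron markers were detected, with Nefh, a heavy neurofilament, at 7988 to 9196 CPM (counts scaled to a common library size) and the nociceptor sodium channel gene Scn10a at 585 to 646 CPM. The myelin genes of Schwann cells were detected too, at 9301 to 14037 CPM summed over 7 markers. Levels below are CPM after TMM scaling, a factor per library that makes most genes comparable, and fold changes are log2 differences between group means with their standard error (SE) from 1 edgeR quasi-likelihood fit of the 6 libraries. The threshold was 0.05 on p adjusted over the 15531 genes tested (Benjamini-Hochberg), a gene past it is referred to as called, and the tested set held 86 of the 88 members. Over all genes, 3 were called in CPIP+Veh against Sham+Veh, none in CPIP+ETA against CPIP+Veh and 3 in CPIP+ETA against Sham+Veh. The genes called were LOC103689931, LOC103690108 and RT1-CE10 each time, named here after their values were seen, and none of them is a ribosomal protein gene.

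Ribosomal protein genes together took between 1.54% and 1.642% of the counts of a library. Their summed level was 15796 and 16089.5 CPM under Sham+Veh, 16315 and 16413 CPM under CPIP+Veh, and 15492 and 15570.5 CPM under CPIP+ETA. Both CPIP+Veh libraries lay above both Sham+Veh libraries and both CPIP+ETA libraries lay below all others, with no overlap between the groups. The group means were 15943 ± 208 CPM (SD, n = 2) in Sham+Veh, 16364 ± 69.9 in CPIP+Veh and 15531 ± 55.4 in CPIP+ETA. CPIP+Veh stood at 1.026 times Sham+Veh, CPIP+ETA at 0.9491 times CPIP+Veh and CPIP+ETA at 0.9742 times Sham+Veh. These are descriptions of 2 libraries a group with no test. In a bulk sample, fewer cells of a type and less of an RNA per cell cannot be told apart.

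The large subunit genes summed to 9236 and 9469.8 CPM under Sham+Veh, 9698 and 9702 CPM under CPIP+Veh, and 9245 and 9192 CPM under CPIP+ETA. Here the CPIP+Veh libraries were the highest, while CPIP+ETA 1 lay just above Sham+Veh 1, so Sham+Veh and CPIP+ETA overlapped. That overlap rests on Rpl12, a member with uncertain values that are described below. Rpl12 had 123.8 CPM in CPIP+ETA 1 and 26.4 CPM in Sham+Veh 1, and with Rpl12 left out the groups would not overlap. The small subunit genes summed to 6312 and 6371 CPM under Sham+Veh, 6386 and 6469 CPM under CPIP+Veh, and 6011 and 6120.2 CPM under CPIP+ETA, and the 3 groups did not overlap. The ratio of the large to the small sum was 1.46 and 1.49 with Sham+Veh and ran from 1.50 to 1.54 over the 4 CPIP libraries, highest in CPIP+ETA 1. Rpl12 adds to this ratio in CPIP+ETA 1 and CPIP+Veh 1, where it was high.

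**Figure D1:**
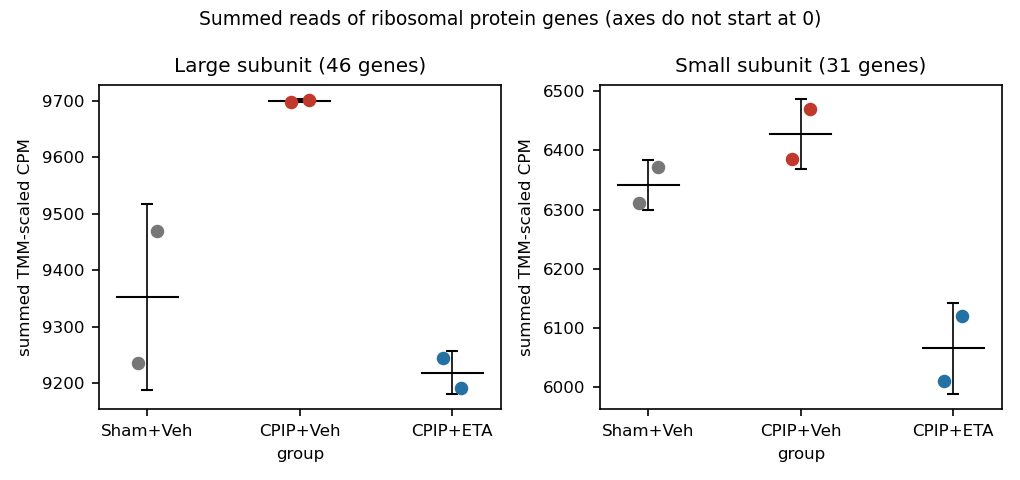
Summed TMM-scaled CPM of the 46 large subunit genes (left) and the 31 small subunit genes (right) by group. Points are libraries, horizontal lines are group means and bars are SDs (n = 2). The vertical axes do not start at 0. The CPIP+Veh libraries are the highest in both panels and the CPIP+ETA libraries the lowest in the small subunit panel.

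Library by library, CPIP+Veh 2 had the highest level of 34 of the 86 tested members and CPIP+Veh 1 that of 21. Sham+Veh 2 had the highest level of 18, CPIP+ETA 2 of 7, Sham+Veh 1 of 5 and CPIP+ETA 1 of 1. The lowest level was in CPIP+ETA 1 for 31 members and in CPIP+ETA 2 for 25. The median deviation of a member from its own mean over the libraries was 0.02 and 0.05 on the log2 scale in the CPIP+Veh libraries and -0.05 and -0.02 in the CPIP+ETA libraries. Over all genes tested, the same median lay between -0.003 and 0.004 in each library.

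**Figure D2:**
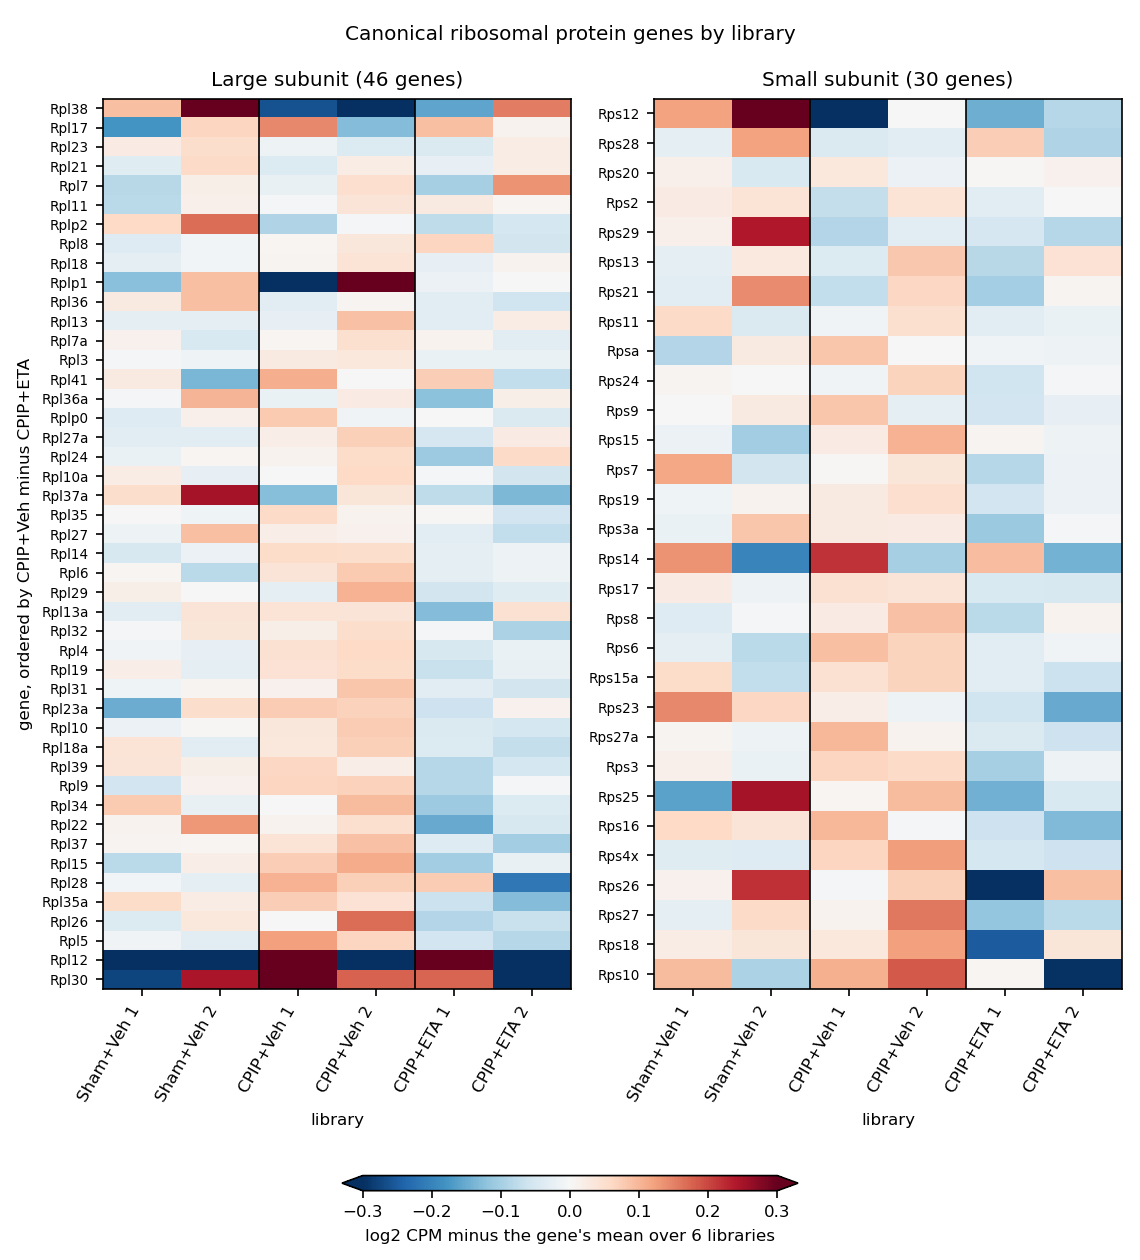
Canonical ribosomal protein genes (46 large subunit, 30 of the 31 small subunit) in the 6 libraries, coloured by log2 CPM minus the gene's mean over the libraries and ordered by CPIP+Veh minus CPIP+ETA. The colour scale ends at -0.3 and 0.3. Most rows are pale red in the middle pair of columns and pale blue in the last pair. Rps18, Rps26 and Rps10 depart strongly in single libraries, and Rpl12 and Rpl30 in more than 1.

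Replicate libraries agreed closely for these genes. The median SD within a group was 0.051 on the log2 scale over the 86 tested members, against 0.102 over all genes tested and 0.062 over the 4455 genes with a mean of at least 50 CPM. The members with the largest spread were Rpl12 at 1.38, Rplp1 at 0.453, Rpl30l1 at 0.445, Rpl10l at 0.421 and Rpl30 at 0.398. Of these, Rpl30l1 and Rpl10l are copies with few reads, and Rplp1 had few reads too (a mean of 5.14 CPM).

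The first comparison asked what CPIP changed under vehicle. In CPIP+Veh against Sham+Veh, most ribosomal protein genes were slightly higher, and a minority with low values in both CPIP+Veh libraries (Rpl38, Rps12, Rplp2, Rps27l) were lower, but none passed the test. No member was called by edgeR (0 of 86, where 0.0193% of all genes were), by DESeq2, which called 49 genes in the whole table, or by limma-voom, which called 2. At an unadjusted p under 0.05, edgeR listed 3 members higher and 6 lower, where 2.34% and 2.59% of all genes were (4.93% in either direction). The fold change was above 0 for 59 of the 86 members (49% of all genes), with a median of 0.04 against -0.003 over all genes. The groups did not overlap, with CPIP+Veh higher, for 30 members (34.9% of members, 17.6% of all genes) and, with CPIP+Veh lower, for 14 (16.3% of members, 19.5% of all genes). The large subunit had 37 of 46 genes above 0 with a median of 0.05, and the small subunit 20 of 31 with a median of 0.02.

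Among small subunit proteins on the higher side, Rps6, the substrate of the S6 kinases downstream of mTOR, had 303 and 292 CPM under Sham+Veh, 329 and 324 CPM under CPIP+Veh, and 302 and 307 CPM under CPIP+ETA. Both CPIP+Veh libraries were above the other 4, and the fold change against Sham+Veh was 0.13 ± 0.05 (SE; edgeR adjusted p = 0.938). Rps4x, an X-linked small subunit protein, had 344 and 344 CPM under Sham+Veh, 369 and 385 CPM under CPIP+Veh, and 339.9 and 338 CPM under CPIP+ETA, with a fold change of 0.13 ± 0.05 (adjusted p = 0.938, edgeR). Its Sham+Veh libraries lay within 1 CPM of each other and below both CPIP+Veh libraries. Rps15, a protein of the head of the small subunit, had 239 and 225 CPM under Sham+Veh, 246 and 260.0 CPM under CPIP+Veh, and 243 and 239 CPM under CPIP+ETA, and its Sham+Veh libraries were the 2 lowest of the 6. That was a difference of 0.13 ± 0.06 (adjusted p = 0.938, edgeR).

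On the large subunit, Rpl5, which carries the 5S ribosomal RNA together with Rpl11, had 254 and 249 CPM under Sham+Veh, 278 and 267 CPM under CPIP+Veh, and 245 and 241 CPM under CPIP+ETA. CPIP+Veh was above both other groups with no overlap, by 0.12 ± 0.05 against Sham+Veh (adjusted p = 0.938, edgeR). Rpl15, a protein of the large subunit mutated in some patients with Diamond-Blackfan anaemia, had 179 and 192 CPM under Sham+Veh, 199 and 204 CPM under CPIP+Veh, and 176 and 186 CPM under CPIP+ETA and a difference of 0.12 ± 0.06 (adjusted p = 0.938, edgeR). As for Rpl5, both CPIP+Veh libraries were the highest of the 6, and without Sham+Veh 1 the difference was 0.08.

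The lower side was led by Rpl38, a small protein of the large subunit known from mice with skeletal patterning defects. It had 61.3 and 81.4 CPM under Sham+Veh, 47.9 and 45.98 CPM under CPIP+Veh, and 51.6 and 64.1 CPM under CPIP+ETA. Both CPIP+Veh libraries were the lowest of the 6, the Sham+Veh libraries differed from each other by more than the CPIP+ETA libraries did, and the difference was -0.60 ± 0.15 (adjusted p = 0.824, edgeR). Without Sham+Veh 2 it was -0.38. Rps12, a protein of the small subunit head, had 122 and 154 CPM under Sham+Veh, 88.6 and 112 CPM under CPIP+Veh, and 102 and 106 CPM under CPIP+ETA, with Sham+Veh above the other groups and a difference of -0.46 ± 0.14 (adjusted p = 0.938, edgeR). That difference was -0.28 without Sham+Veh 2 and -0.30 without CPIP+Veh 1. Rplp2, of the stalk that recruits elongation factors to the large subunit, had 154 and 166 CPM under Sham+Veh, 138 and 147 CPM under CPIP+Veh, and 139.7 and 142 CPM under CPIP+ETA and a difference of -0.16 ± 0.06 (adjusted p = 0.938, edgeR). Its Sham+Veh libraries were also the highest of the 6, and without Sham+Veh 2 the difference was -0.11. Rplp0, which anchors that stalk, overlapped between the groups, with 486 and 504 CPM under Sham+Veh, 527 and 495 CPM under CPIP+Veh, and 498 and 484 CPM under CPIP+ETA.

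**Figure D3:**
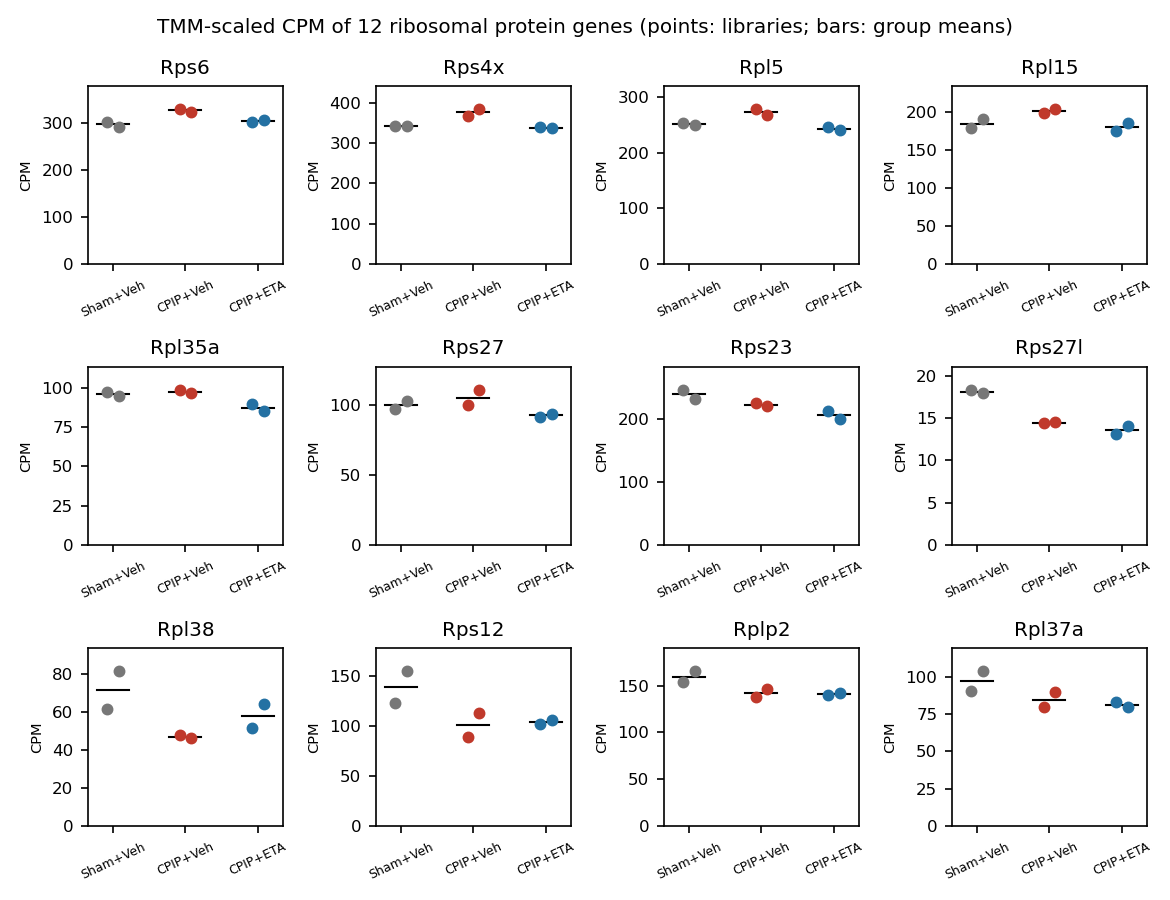
TMM-scaled CPM of 12 members named by the lowest p in at least 1 comparison. Points are libraries (grey Sham+Veh, red CPIP+Veh, blue CPIP+ETA), bars are group means, and each vertical axis starts at 0. Rps6, Rps4x, Rpl5 and Rpl15 are highest in CPIP+Veh, and Rps27l, Rps12, Rplp2 and Rpl37a are highest in Sham+Veh.

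The second comparison asked what etanercept changed after CPIP. In CPIP+ETA against CPIP+Veh, most ribosomal protein genes of both subunits were lower by a small amount, and again none passed the test. No member was called by edgeR (0 of 86, where 0% of all genes were), DESeq2 (21 genes in the whole table) or limma-voom (0 genes). At an unadjusted p under 0.05, edgeR listed 2 members higher and 9 lower (2.41% and 2.74% of all genes, 5.15% in either direction). The fold change was below 0 for 71 members and above 0 for 15, where 49.5% of all genes were above, and its median was -0.07 against -0.002 over all genes. CPIP+ETA was lower with no overlap for 44 members (51.2% of members, 16.9% of all genes) and higher with no overlap for 4 (4.65% of members, 15.7% of all genes). Large subunit genes were below 0 in 41 of 46 cases with a median of -0.08, and small subunit genes in 27 of 31 with the same rounded median. This comparison shares its CPIP+Veh libraries with the first, so a high value there enters both with opposite sign.

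Rpl5, with the values given above, had the lowest p on the lower side among the members, with a fold change of -0.17 ± 0.05 (adjusted p = 0.938, edgeR). Rps4x differed by -0.15 ± 0.05 (adjusted p = 0.938, edgeR), and both its CPIP+ETA libraries were below both Sham+Veh libraries too. Rpl15 differed by -0.16 ± 0.06 (adjusted p = 0.938, edgeR), and its CPIP+ETA values overlapped those of Sham+Veh.

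Rpl35a, a large subunit protein whose mutation can cause Diamond-Blackfan anaemia, had 97.5 and 95.2 CPM under Sham+Veh, 98.7 and 96.7 CPM under CPIP+Veh, and 89.6 and 85.6 CPM under CPIP+ETA. Sham+Veh and CPIP+Veh overlapped and CPIP+ETA lay below both, with a difference of -0.16 ± 0.05 from CPIP+Veh (adjusted p = 0.938, edgeR). That layout did not hold once the rows RefSeq names as its copies were added, with 113 and 105 CPM under Sham+Veh, 121 and 117 CPM under CPIP+Veh, and 109.8 and 110.4 CPM under CPIP+ETA. With them CPIP+ETA lay within Sham+Veh (a difference of 0.01 ± 0.06, where Rpl35a alone gave -0.14 ± 0.05) and CPIP+Veh lay above both. The copy Rpl35al1, named after its values were seen, had 11.5 and 10.1 CPM under Sham+Veh, 20.1 and 20.2 CPM under CPIP+Veh, and 18.4 and 22.9 CPM under CPIP+ETA. Its differences from Sham+Veh were 0.90 ± 0.13 and 0.94 ± 0.13 (adjusted p = 0.361 and 0.269, edgeR). Rps27, a zinc-finger protein of the small subunit, had 97.4 and 103 CPM under Sham+Veh, 100.2 and 111 CPM under CPIP+Veh, and 91.6 and 93.9 CPM under CPIP+ETA, with a difference of -0.19 ± 0.07 (adjusted p = 0.938, edgeR). Here too both CPIP+ETA libraries were the lowest of the 6, and without CPIP+Veh 2 the difference was -0.11. Of the canonical members, Rpl38 alone was higher in CPIP+ETA than in CPIP+Veh with no overlap, by 0.30 ± 0.15 (adjusted p = 0.938, edgeR), a value of 0.13 without CPIP+ETA 2 and 0.45 without CPIP+ETA 1.

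**Figure D4:**
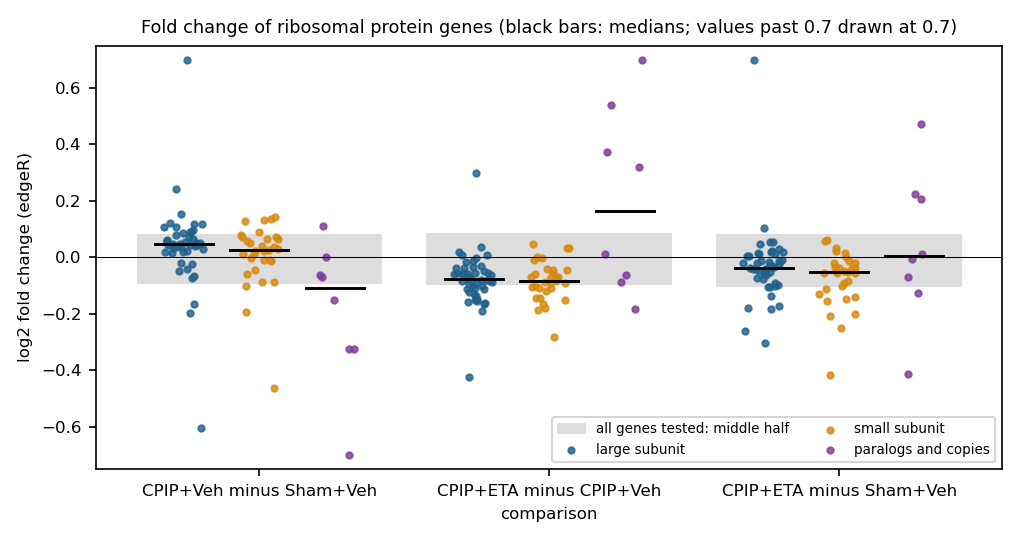
Fold changes (log2, edgeR) of the large subunit genes (blue, 46), small subunit genes (orange, 31) and the tested paralogs and copies (purple, 8) in the 3 comparisons. Rps19bp1 is not drawn. Black bars are medians, grey bands span the middle of all tested genes from the 25th to the 75th percentile, and values past 0.7 are drawn at the edge. In the middle comparison both subunit clouds sit below 0, with 68 of 77 canonical genes on that side.

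Against Sham+Veh, CPIP+ETA had slightly lower ribosomal protein genes, and none passed the test. No member was called by edgeR (0 of 86, where 0.0193% of all genes were), DESeq2 (50 genes in the whole table) or limma-voom (1 gene). At an unadjusted p under 0.05, edgeR listed 0 members higher and 10 lower (2.64% and 3.73% of all genes, 6.37% in either direction). The fold change was above 0 for 25 members and below 0 for 61, where 49.3% of all genes were above, with a median of -0.04 against -0.002 over all genes. CPIP+ETA was lower with no overlap for 31 members (36.0% of members, 18.5% of all genes) and higher for 2 (2.33% of members, 17.2% of all genes). Both groups also enter the comparisons above.

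Rps23, a small subunit protein of the decoding centre, had 246 and 233 CPM under Sham+Veh, 226 and 221 CPM under CPIP+Veh, and 214 and 201 CPM under CPIP+ETA. The groups stood in the order Sham+Veh, CPIP+Veh, CPIP+ETA with no overlap, and CPIP+ETA differed from Sham+Veh by -0.21 ± 0.06 (adjusted p = 0.626, edgeR). Rpl37a, a zinc-binding protein of the large subunit, had 90.7 and 104 CPM under Sham+Veh, 80.01 and 89.7 CPM under CPIP+Veh, and 82.9 and 79.6 CPM under CPIP+ETA, and Rplp2 and Rps12 showed the same layout, with Sham+Veh above 2 CPIP groups that overlapped. The differences from Sham+Veh were -0.26 ± 0.09 for Rpl37a (adjusted p = 0.723, edgeR), -0.18 ± 0.06 for Rplp2 and -0.42 ± 0.14 for Rps12. Without Sham+Veh 2 they were -0.16 for Rpl37a and -0.24 for Rps12. On the higher side, Rps15 differed by 0.06 ± 0.06 (adjusted p = 0.898, edgeR), with 0.02 without Sham+Veh 2 and 0.11 without Sham+Veh 1.

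Canonical members with a pyrimidine run near their annotated start and those without had nearly the same median fold changes. Some of these runs end before that start, so the split does not separate mRNAs that begin with the motif from the rest. In CPIP+Veh against Sham+Veh the medians were 0.045 with the run (44 genes) and 0.0415 without (18 genes). In CPIP+ETA against CPIP+Veh they were -0.0778 and -0.0787, and in CPIP+ETA against Sham+Veh -0.0422 and -0.0288. Of the genes shown above, Rpl5 has a run that ends before its annotated start and Rps4x has none. Both were highest in the 2 CPIP+Veh libraries.

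Several of the largest departures of a single library were mirrored in another row of the table, in most cases 1 that RefSeq names as a copy of the gene. Ribosomal protein genes have many near-identical processed copies in the genome, and reads that fit both can be divided between them in counting, which was not tested here. Rpl12, which sits at the base of the stalk, had 26.4 and 32.3 CPM under Sham+Veh, 134 and 30.05 CPM under CPIP+Veh, and 124 and 19.9 CPM under CPIP+ETA, high in CPIP+Veh 1 and CPIP+ETA 1 alone. The row LOC102555453, a provisional symbol that the RefSeq table does not name as a copy and that was picked after its values were seen, had 173 and 179 CPM under Sham+Veh, 62.9 and 186 CPM under CPIP+Veh, and 65.1 and 176 CPM under CPIP+ETA, low in exactly those 2 libraries. Their sum stayed between 189 and 216 CPM, so the fold changes of Rpl12, 1.49 ± 0.92 and 1.30 ± 0.92 against Sham+Veh, are uncertain. Without CPIP+ETA 1 the latter was -0.55.

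Rps18, of the small subunit head, had 166 and 167 CPM under Sham+Veh, 167 and 178 CPM under CPIP+Veh, and 137 and 167 CPM under CPIP+ETA, lowest in CPIP+ETA 1. The row that RefSeq names Rps18l1 had 32.6 CPM in CPIP+ETA 1 and was listed at 0 in the other libraries, and the sum of both was 166 to 178 CPM. Rpl30, a large subunit protein, had 76.5 and 109.9 CPM under Sham+Veh, 116 and 105 CPM under CPIP+Veh, and 105 and 59.4 CPM under CPIP+ETA, and its copy Rpl30l2 had 49.3 and 31.3 CPM under Sham+Veh, 24.5 and 32.9 CPM under CPIP+Veh, and 26.4 and 65.7 CPM under CPIP+ETA, so the sum was 125 to 141 CPM. Rps26, which lines the mRNA exit, was lowest in CPIP+ETA 1 at 71.6 CPM, where its copy Rps26-ps11 was highest at 27.7 CPM. Rps14, of the small subunit platform, was 102 to 136 CPM alone and 282 to 307 CPM with Rps14-ps7 added. Except for Rps10l1 below, these pairs were also chosen after their values were seen.

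Rps10, which lies near the mRNA entry of the small subunit, had 108 and 95.1 CPM under Sham+Veh, 109 and 115 CPM under CPIP+Veh, and 102 and 82.6 CPM under CPIP+ETA. Its copy Rps10l1, a member by the symbol rule, had 55.2 and 54.3 CPM under Sham+Veh, 47.5 and 51.2 CPM under CPIP+Veh, and 57.9 and 70.04 CPM under CPIP+ETA, with both CPIP+ETA libraries above the other 4. Rps10l1 had the lowest p of any member on the higher side of CPIP+ETA against CPIP+Veh, with a difference of 0.37 ± 0.10 (adjusted p = 0.938, edgeR). Without CPIP+ETA 2 it was 0.23. The sum of both genes was 149 to 166 CPM, highest and lowest in CPIP+Veh 2 and Sham+Veh 2. Rps9 and the row LOC103689992, which RefSeq also names Rps9, held the same count in every library, 103 to 114 CPM each.

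The 87 rows that RefSeq names after 46 parent genes were then added to those genes, a step chosen after seeing the data. Most are named as copies, while a row each for Rps9 and Rps19 carries the parent's own symbol. The SD within groups became smaller for 30 of the 46. For Rpl30 it went from 0.398 to 0.0714, for Rps14 from 0.210 to 0.0377, for Rps26 from 0.216 to 0.0395 and for Rps18 from 0.123 to 0.0387. These genes had been picked above for their mirrored rows. Many other changes were very small, such as 0.0875 to 0.0874 for Rpl23a, and some SDs rose, as for Rpl35a from 0.0326 to 0.0446. Of the 87 added rows, 38 had at least 10 counts in some library. No member was called after the addition, and the medians of the 86 members were 0.04, -0.07 and -0.04 in the 3 comparisons, in the order used above. The summed level of all members and the 87 added rows was 16312 and 16554 CPM under Sham+Veh, 16808 and 16919.5 CPM under CPIP+Veh, and 16006 and 16102 CPM under CPIP+ETA, so the order of the groups was that of the members alone. It was also that order with the row that mirrors Rpl12 added (16071 to 17106 CPM). Rpl38 and Rps12 were little affected, with spreads of 0.211 and 0.220 for Rpl38 and of 0.197 and 0.196 for Rps12 before and after.

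**Figure D5:**
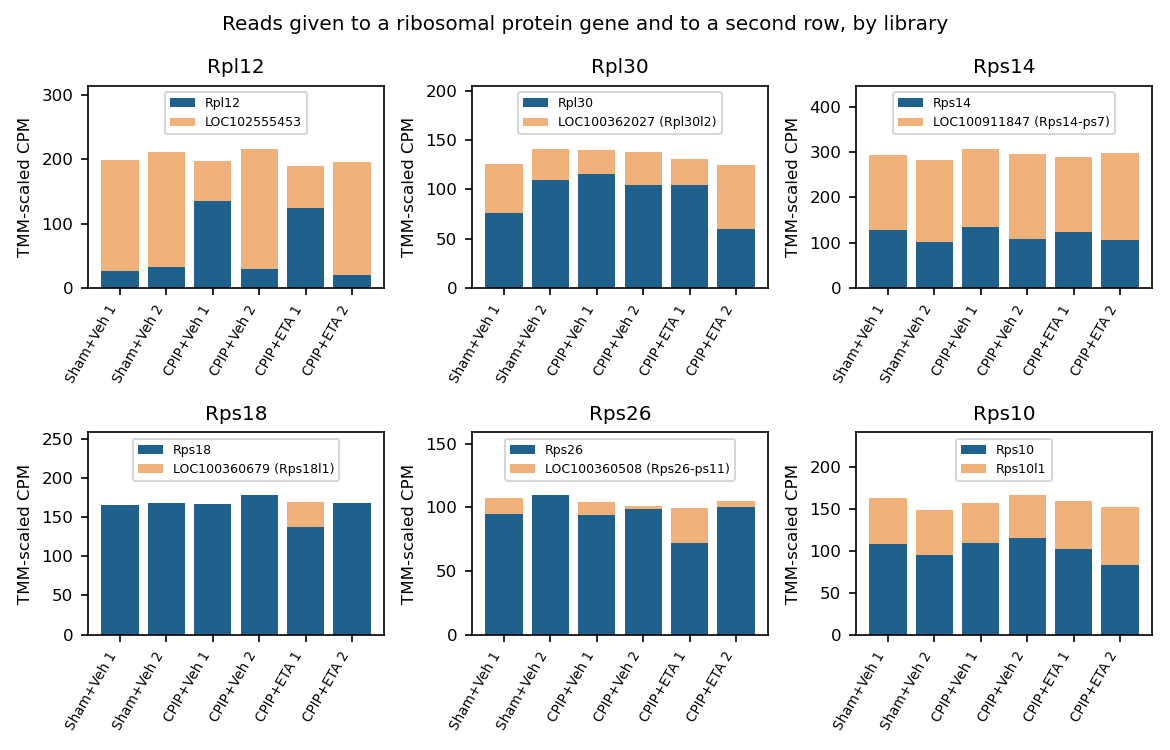
TMM-scaled CPM of 6 ribosomal protein genes (blue) and of a second row with a copy or a mirrored value (orange), stacked for each library. The total height varies little within a panel while the division changes, most for Rpl12, where the blue share runs from 10.2% to 68.1%.

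Of the 8 paralogs and copies that were tested, 2 were above 0 in CPIP+Veh against Sham+Veh and 5 in CPIP+ETA against CPIP+Veh, and the medians were -0.11 and 0.16. Rps27l, a paralog of Rps27 that p53 induces, had 18.3 and 17.996 CPM under Sham+Veh, 14.5 and 14.5 CPM under CPIP+Veh, and 13.1 and 14.2 CPM under CPIP+ETA. Sham+Veh was above both CPIP groups with no overlap, and the differences from it were -0.33 ± 0.09 for CPIP+Veh (adjusted p = 0.893, edgeR) and -0.41 ± 0.09 for CPIP+ETA (adjusted p = 0.515, edgeR). That is the smallest p of any member in the last comparison, and its counts were 260 to 339. Rps27 itself overlapped between Sham+Veh and CPIP+Veh.

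Rps4y2, a paralog of Rps4x, had 8.28 and 9.24 CPM under Sham+Veh, 7.19 and 6.81 CPM under CPIP+Veh, and 8.91 and 8.54 CPM under CPIP+ETA. It was lowest in both CPIP+Veh libraries, where Rps4x was highest, with differences of -0.32 ± 0.12 against Sham+Veh and 0.32 ± 0.12 for CPIP+ETA against CPIP+Veh (adjusted p = 0.938 and 0.938, edgeR). Rpl22l1, the paralog of the RNA-binding protein Rpl22, had 40.1 and 38.7 CPM under Sham+Veh, 40.1 and 44.9 CPM under CPIP+Veh, and 32.7 and 42.4 CPM under CPIP+ETA, with the lowest value in CPIP+ETA 1. Rpl36al, a copy of Rpl36a, had 60.2 and 59.3 CPM under Sham+Veh, 57.7 and 56.8 CPM under CPIP+Veh, and 54.9 and 54.7 CPM under CPIP+ETA, in the order Sham+Veh, CPIP+Veh, CPIP+ETA with no overlap and a difference of -0.13 ± 0.05 between the outer groups (adjusted p = 0.779, edgeR). Rpl7l1, a factor of large subunit assembly, had 61.2 and 61.9 CPM under Sham+Veh, 59.8 and 63.4 CPM under CPIP+Veh, and 63.4 and 60.7 CPM under CPIP+ETA, with all groups overlapping.

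Other paralogs had few reads. Rpl10l, the testis form of Rpl10, had 1.24 and 2.63 CPM under Sham+Veh, 2.07 and 1.61 CPM under CPIP+Veh, and 2.11 and 3.27 CPM under CPIP+ETA, and Rpl30l1 had 1.24 and 1.64 CPM under Sham+Veh, 0.506 and 1.06 CPM under CPIP+Veh, and 1.06 and 2.29 CPM under CPIP+ETA. Rpl3l, the form of Rpl3 in striated muscle, and Rpl39l, the testis form of Rpl39, were under 0.5 CPM in every library and did not pass the filter on low counts. Rps19bp1 had 1.08 and 2.19 CPM under Sham+Veh, 1.11 and 1.82 CPM under CPIP+Veh, and 1.61 and 1.96 CPM under CPIP+ETA, with overlapping groups. Among canonical members Rplp1, the partner of Rplp2 in the stalk, had the fewest reads, with 4.55 and 5.36 CPM under Sham+Veh, 3.34 and 7.66 CPM under CPIP+Veh, and 4.93 and 5.01 CPM under CPIP+ETA. CPM is not divided by transcript length, so these values are reads and not levels that can be ranked between genes. By reads, the first 5 members were Rplp0, Rpl13a, Rps2, Rpl4 and Rpl3, with means over the libraries of 499, 435, 421, 409.1 and 408.9 CPM.

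Rpl3, which lies near the peptidyl transferase centre, had 407 and 405 CPM under Sham+Veh, 416 and 418 CPM under CPIP+Veh, and 403 and 403 CPM under CPIP+ETA, and its CPIP+Veh libraries were above the other 4. Rpl4, which lines the exit tunnel, had 406 and 402 CPM under Sham+Veh, 422 and 426 CPM under CPIP+Veh, and 395 and 403 CPM under CPIP+ETA, in the same layout. Rpl13a, known also for silencing mRNAs outside the ribosome, had 425 and 447 CPM under Sham+Veh, 448 and 447 CPM under CPIP+Veh, and 397 and 449 CPM under CPIP+ETA, lowest in CPIP+ETA 1, and Rps2 overlapped between CPIP+Veh and both other groups, with 428 and 433 CPM under Sham+Veh, 400.5 and 433 CPM under CPIP+Veh, and 411 and 421 CPM under CPIP+ETA.

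Genes that work with ribosomal proteins were followed in the same fit, and none of those in the lists below was called in any comparison. Translation factors and other genes listed as having pyrimidine-start mRNAs (37 tested) had medians of 0.05, -0.02 and 0.02 in the 3 comparisons, with 25, 12 and 24 above 0. Whether each of these genes has the run was not looked up. In CPIP+ETA against CPIP+Veh the lowest p in this list were those of the initiation factor 3 subunits Eif3h, with 36.8 and 39.6 CPM under Sham+Veh, 32.2 and 29.8 CPM under CPIP+Veh, and 44.4 and 38.1 CPM under CPIP+ETA, and Eif3i, and of the elongation factor subunit Eef1b2. Their differences were 0.41 ± 0.09, 0.16 ± 0.06 and -0.14 ± 0.06 (adjusted p = 0.938 for each, edgeR). Rack1, a scaffold on the small subunit, had 224 to 236 CPM, and Fau, which gives a ribosomal protein fused to a ubiquitin-like protein, had 192 to 207 CPM. Both overlapped between the CPIP groups.

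Ribosome biogenesis genes (42 tested) had medians of 0.03, -0.01 and 0.01, with 26, 17 and 23 above 0. In CPIP+ETA against CPIP+Veh the lowest p were those of Rpf2, Rrp9 and Nop56, and the differences were -0.24 ± 0.11, -0.20 ± 0.10 and -0.12 ± 0.06 (adjusted p = 0.938 for each, edgeR). Nop56, a core protein of the particles that methylate ribosomal RNA, had 84.9 and 83.3 CPM under Sham+Veh, 90.5 and 99.5 CPM under CPIP+Veh, and 87.5 and 87.7 CPM under CPIP+ETA, highest in the 2 CPIP+Veh libraries. In CPIP+Veh against Sham+Veh the first were Nhp2, Npm1 and Nop56, with 0.32 ± 0.08, 0.14 ± 0.05 and 0.18 ± 0.06 (adjusted p = 0.774, 0.938 and 0.938, edgeR). Nhp2, of the particles that pseudouridylate ribosomal RNA, had 20.1 and 20.9 CPM under Sham+Veh, 25.8 and 25.3 CPM under CPIP+Veh, and 23.8 and 23.7 CPM under CPIP+ETA, with Sham+Veh below both CPIP groups.

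Genes of mTOR and Myc control (25 tested) had medians of 0.003, 0.06 and 0.03, with 13, 18 and 15 above 0. The list holds Mtor itself together with its inhibitors, so a direction shared in it gives no direction for the pathway. In CPIP+ETA against CPIP+Veh, 8 were higher and 0 lower with no overlap, where 15.7% and 16.9% of all genes were. The lowest p there were those of the elongation factor 2 kinase gene Eef2k, of Tsc2 and of Ddit4, both inhibitors of mTOR, with differences of 0.22 ± 0.08, 0.13 ± 0.06 and 0.41 ± 0.20 (adjusted p = 0.938 for each, edgeR). Ddit4 had 77.6 and 63.2 CPM under Sham+Veh, 71.7 and 107 CPM under CPIP+Veh, and 109 and 129.5 CPM under CPIP+ETA, with both CPIP+ETA libraries the highest and CPIP+Veh 2 close below them.

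Mitochondrial ribosomal proteins (78 tested of 79) had medians of 0.007, -0.01 and -0.01, with 42, 34 and 36 above 0. The lowest p in CPIP+ETA against CPIP+Veh were those of Mrpl1, Mrpl27 and Mrpl46. Mrpl1 was listed at 0 in Sham+Veh 1 and both CPIP+Veh libraries and at 3.78 to 5.42 CPM in the others, so no fold is given. Mrpl27 had 42.1 and 42.2 CPM under Sham+Veh, 38.1 and 38.3 CPM under CPIP+Veh, and 34.5 and 33.7 CPM under CPIP+ETA, in the order Sham+Veh, CPIP+Veh, CPIP+ETA with no overlap, and Mrpl46 differed by -0.24 ± 0.09 between the CPIP groups (adjusted p = 0.938, edgeR). Nuclear genes of the respiratory chain (89 tested of 95) had medians of 0.0005, 0.002 and -0.02, with 46, 45 and 38 above 0. Their lowest p in CPIP+ETA against CPIP+Veh were those of Sdhaf4, Ndufaf2 and Sdha, at 0.20 ± 0.08, -0.24 ± 0.10 and 0.12 ± 0.05 (adjusted p = 0.938 for each, edgeR).

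Markers of other cells moved with some of the groups, and their part in the ribosomal protein values was not tested. Red blood cell genes (5 tested of 6 in the table) were above 0 in 5 of 5 cases in CPIP+ETA against CPIP+Veh, and their sum was 82.1 and 75.2 CPM under Sham+Veh, 23.3 and 101 CPM under CPIP+Veh, and 267 and 159 CPM under CPIP+ETA, highest in both CPIP+ETA libraries. Pericyte and smooth muscle genes summed to 174 and 167 CPM under Sham+Veh, 120.2 and 120.4 CPM under CPIP+Veh, and 120.2 and 144 CPM under CPIP+ETA, with Sham+Veh above the CPIP groups and 6 of 7 genes below 0 in CPIP+Veh against Sham+Veh. Fibroblast genes summed to 3618 and 3861 CPM under Sham+Veh, 2843 and 3473 CPM under CPIP+Veh, and 2299 and 2925 CPM under CPIP+ETA, lowest in CPIP+ETA 1, and 6 of 6 were below 0 in each comparison. Myelin genes of Schwann cells were lowest in CPIP+ETA 1, at 9301 CPM, and between 11261 and 14037 CPM in the others, overlapping between groups. Macrophage genes ran from 199 to 271 CPM, with CPIP+ETA highest, and none of the markers of these 5 lists was at 0 in any library. Sensory neuron genes summed to 20369 and 19432 CPM under Sham+Veh, 20714 and 20196 CPM under CPIP+Veh, and 21559 and 19849 CPM under CPIP+ETA, with overlapping groups and the highest value in CPIP+ETA 1. Genes of dividing cells were above 0 in 7 of 8 cases in CPIP+Veh against Sham+Veh and below 0 in 8 of 8 in CPIP+ETA against CPIP+Veh, the directions of most ribosomal protein genes. In the first of these comparisons 5 of the 8 were higher with no overlap (62.5%, against 17.6% of all genes). Their sum was 62.9 and 63.2 CPM under Sham+Veh, 65.03 and 74.5 CPM under CPIP+Veh, and 57.5 and 65.9 CPM under CPIP+ETA, highest in CPIP+Veh 2 and overlapping between the CPIP groups. Skeletal muscle genes were above 0 in 12 of 13 cases and then below 0 in 11 of 13, with a sum of 18.9 and 36.5 CPM under Sham+Veh, 19.5 and 108 CPM under CPIP+Veh, and 12.6 and 59.9 CPM under CPIP+ETA, highest in CPIP+Veh 2. Of these, Myh2 was listed at 0 in Sham+Veh 1, CPIP+Veh 1 and CPIP+ETA 1, and Mb in CPIP+ETA 1. Endothelial genes were below 0 in 7 of 7 cases in CPIP+Veh against Sham+Veh, with a sum of 175 and 177 CPM under Sham+Veh, 153 and 141 CPM under CPIP+Veh, and 149 and 172 CPM under CPIP+ETA, lowest in both CPIP+Veh libraries and CPIP+ETA 1. Adipocyte genes (4 tested of 5 in the table) were below 0 in 4 of 4 cases in that comparison and summed to 6.95 to 17.8 CPM, with Adipoq listed at 0 in both CPIP+Veh libraries and Cidec and Fabp4 in CPIP+Veh 1. Neutrophil genes (3 tested of 5 in the table) were above 0 in each comparison and summed to 2.54 and 3.12 CPM under Sham+Veh, 1.62 and 9.58 CPM under CPIP+Veh, and 5.54 and 8.82 CPM under CPIP+ETA, with Elane listed at 0 in Sham+Veh 1. Satellite glia genes summed to 5114 to 5694 CPM, highest in both Sham+Veh libraries, and lymphocyte genes to 41.9 to 51.9 CPM, with Ms4a1 listed at 0 in CPIP+Veh 1.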

How the data were processed

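RNA-seq libraries of 3 groups with 2 libraries each were compared. The authors deposited 1 table of expected counts per gene, estimated read numbers of which 32.7% were whole, on build Rnor_6.0 per the submitters' processing notes. Which aligner, counting program and strand setting were used is not given in the sources used here, so copies, overlapping and antisense genes may share reads. Values were rounded, and blank cells (2907 genes were blank in every library) were taken as 0.

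In R 4.3.3, edgeR 4.0.16 fitted the 6 libraries together by group with TMM scaling. Genes passed filterByExpr (at least 10 counts in enough libraries and 15 in all). Quasi-likelihood tests had 3 residual degrees of freedom, and p was adjusted by Benjamini-Hochberg over 15531 genes and called under 0.05. CPM used the same scaling, and deviations used log2(CPM + 0.5). Totals of 18285251 to 19981250 counts and 2 libraries a group limit precision.

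Members and lists were chosen with earlier results of these data known. Named members are the 5 with the lowest p on each side of each comparison, the 5 with the most and the 5 with the fewest reads, the paralogs and Rps19bp1. A few genes that these rules name are not reported here. In other lists the 3 genes with the lowest p are named, and any other gene is said to have been picked once its values were known. Sequences are from RefSeq (GRCr8). Of the 88 members, 85 identifiers were in its gene table and 72 members had a promoter sequence.

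Results were recomputed with DESeq2 1.42.0 and limma-voom (limma 3.58.1), with other scalings (RLE, upper quartile, library total), with genes unfiltered or kept at 1 CPM in 2 libraries, and with the compared pair of groups alone, a replicate block, a robust prior, adjusted p under 0.1, members of at least 10 CPM, canonical members only and each library left out. Summing copies was added after seeing the data. On simulated data made like the CPIP+ETA and CPIP+Veh libraries (15366 genes), the tests found 43.3% of true 1.5-fold changes, 65.7% of those of 2-fold and 92.4% of those of 4-fold. They also made 13 false calls there. Figures used matplotlib 3.10.9.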

Additional observations from a re-analysis of the deposited data

How the results depend on the processing

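No ribosomal protein gene was called in any comparison under any alternative run, and the medians kept their sign throughout, at 0.03 to 0.05 in CPIP+Veh against Sham+Veh, -0.09 to -0.06 in CPIP+ETA against CPIP+Veh and -0.04 to -0.02 in CPIP+ETA against Sham+Veh. With each library left out in turn, members above 0 numbered 53 to 64, 13 to 22 and 25 to 30, the highest of the middle range without CPIP+Veh 2. With canonical members only, 9 were above 0 in CPIP+ETA against CPIP+Veh, out of 77 rather than 86. Upper-quartile scaling gave a CPIP+Veh mean of the summed level of 16438.5 CPM. With libraries left out in turn, Rpl12 in CPIP+ETA against Sham+Veh ranged from -0.55, without CPIP+ETA replicate 1 in which it was high, to 2.08. Genes called over the whole table numbered 49, 21 and 50 with DESeq2. In CPIP+ETA against Sham+Veh 1 gene was called with limma-voom and 1 with only the 2 groups compared. Leaving out libraries gave 1 to 3, 0 to 0 and 1 to 2 genes called, with 1 without CPIP+Veh 2 in the first comparison and 1 without CPIP+Veh 1, CPIP+Veh 2 or CPIP+ETA 1 in the last; the cause was not tested. Over all genes, same-numbered libraries showed little shared deviation (correlations over 15531 genes of 0.02, -0.09 and 0.10), so the numbers are not taken as pairs. In each group library 1 had the lower skeletal muscle sum and the higher Rps14 level, both picked after their values were seen. How many genes of the whole table follow the number was not counted. With Rps14-ps7 added, Rps14 did not follow it, at 289 CPM in CPIP+ETA 1 and 297 CPM in CPIP+ETA 2. With the replicate number as a block, 0 members were called in each comparison, 61, 15 and 25 were above 0, and 3, 0 and 3 genes were called over the whole table. How often a shift as small as these medians would be called at this depth was not tested.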
